A study of Saccharomyces cerevisiae with 11 samples.

Results

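Ribosome footprints of Middle cells were compared with those of Young cells of the yeast Saccharomyces cerevisiae over every coding sequence counted, to describe which functions held more or fewer ribosomes. The members were the 4 footprint libraries of these ages (Young 1, Young 2, Middle 1 and Middle 2) of the 11 libraries of the series, each with counts for 6668 coding sequences. All cells were of the diploid wild-type strain BY4743, and each batch culture was started from cells coated with biotin and ran in synthetic defined medium for 13 h at 25 °C. Young cells were the unlabeled daughters left in the supernatant, and Middle cells were the biotin-coated mothers of such a culture, which had divided repeatedly and were held on magnetic streptavidin beads. Age, the biotin coat and the beads therefore cannot be told apart in this comparison. The study describes the replicates as biological, but the labels do not say whether they came from separate cultures, and p-values measure the spread between these libraries.

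A ribosome footprint is a stretch of mRNA that a translating ribosome shields from RNase, so the footprints on a coding sequence follow the amount of its mRNA and the number of ribosomes on each copy. Footprints of a library form a closed pool, and a gene can gain a share of it only where others lose one. In yeast growing on glucose, a large part of this pool lies on glycolytic enzymes and on the translation machinery. Genes for the use of non-fermentable carbon (acetate, lactate, glycerol, fatty acids), for respiration and for gluconeogenesis are kept low by glucose repression, through the kinase Snf1 and the repressor Mig1, and are switched on when glucose runs out.

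The libraries held 417314 (Young 1), 518833 (Young 2), 168247 (Middle 1) and 435946 footprints (Middle 2), with 11, 20, 5 and 17 footprints on the median gene. A count of 3 footprints, taken as the floor, corresponded to 5.782 to 17.83 CPM, footprints scaled to a common library size, and such limits cover counting error only. Over 4167 genes, log2 CPM correlated with r = 0.901 between the Young libraries and r = 0.897 between the Middle libraries. Young 2 lay nearer to the Middle libraries (r = 0.812 and 0.841) than Young 1 did (r = 0.705 and 0.699). The strain is described as lacking URA3 and LEU2, enzymes of uracil and leucine synthesis. URA3 nevertheless had 20 and 73 footprints in the Young libraries, against 17 and 41 in the Middle libraries, and LEU2 had 50 and 30, and 9 and 24. These counts go against the stated genotype in all 4 libraries alike, and their source was not tested. Among 20 haploid-specific and mating genes, STE2 and MFA1 had 0 footprints in all 4 libraries. STE18, the only 1 of the 20 with enough reads to test, had 21 and 9 footprints in the Young libraries, against 9 and 10 in the Middle libraries.

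Footprints of 114 genes rose and those of 173 genes fell in Middle cells, of 4167 genes tested (edgeR's quasi-likelihood test, two-sided, Benjamini-Hochberg adjusted p under 0.05). This is 2.74% of the genes tested for the higher and 4.15% for the lower direction, 6.89% in all. The higher genes together held 0.627% and 1.40% of all footprints in Young 1 and Young 2, and 5.30% and 5.42% in Middle 1 and Middle 2. The lower genes held 13.3% and 8.67% in the Young libraries, against 1.80% and 1.99% in the Middle libraries. They include all 20 genes of the retrotransposon Ty2, which held 5.99% and 3.31%, and 0.518% and 0.424%. Copies of Ty2 appear to share reads, so such reads may enter these sums more than once. Counting every gene for which the groups did not overlap, called or not, 28.2% of those tested lay on the higher and 28.6% on the lower side. In the text, CPM values are scaled by TMM and a log2 fold change is Middle over Young with its standard error (SE), n = 2 libraries per group.

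The count of genes depended on single libraries. Without Middle 2, where Middle 1 alone stood for its group, 35 genes were higher and 11 lower, among them 33 and 7 of the genes called with all libraries. Without Young 2, 381 were higher and 555 lower. Young 2 was nearer than Young 1 to the Middle libraries for 97 of 114 genes called higher and for 148 of 173 called lower. With libraries scaled by their totals the median gene moved by 0.18 on the log2 scale (−0.0085 under TMM), and 205 genes were higher and 174 lower, so that 54.1% of the called genes were higher in place of 39.7%.

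The carnitine shuttle led the higher genes. It carries acetyl units made from acetate or from fatty acids into mitochondria, and all 5 of its members rose, with a median log2 fold change of 3.48 against −0.0085 over all genes tested. YAT1, a carnitine acetyltransferase of the outer mitochondrial membrane, had 17.8 and 21.9 CPM in the Young libraries, against 359 and 617 CPM in the Middle libraries. The gap between the groups was far wider than the spread within either (log2 fold change 4.59, SE 0.50, adjusted p = 0.0088). Its partner CRC1, the carrier that moves acetylcarnitine across the inner membrane, had only 2 and 6 footprints in Young cells, against 26 and 73 in Middle cells (4.05, SE 0.51, adjusted p = 0.010). YAT2, a second acetyltransferase, rose by 3.48 (SE 0.47), and CAT2, the enzyme of peroxisomes and mitochondria, by 3.40 (SE 0.53, adjusted p = 0.013). AGP2, a plasma membrane protein needed for carnitine uptake, rose by 2.12. The shuttle as a whole took 0.0141% and 0.0416% of all footprints in Young cells, against 0.201% and 0.306% in Middle cells. All 5 were also called when either Young library or Middle 1 was left out, and 4 without Middle 2.

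Gluconeogenesis and the glyoxylate cycle, which build sugar from C2 units, had 6 of 14 members higher and 0 lower, at a median of 1.94. PCK1, the enzyme that draws oxaloacetate into gluconeogenesis, had 35.6 and 60.1 CPM in the Young libraries, against 798 and 672 CPM in the Middle libraries. The libraries of each age lay close together and the ages far apart (3.90, SE 0.47, adjusted p = 0.010). FBP1, fructose-1,6-bisphosphatase, had 0 and 2 footprints in Young cells, against 14 and 43 in Middle cells. Against a floor of 3 footprints over both Young libraries, its share of the pool was at least 29.4-fold higher. MLS1 (malate synthase, 3.31) and ICL1 (isocitrate lyase, 4.01), the specific steps of the glyoxylate cycle, also rose. SFC1, the mitochondrial carrier that exchanges succinate for fumarate, had 0 and 7 footprints in Young cells, against 31 and 116 in Middle cells, and the cytosolic isocitrate dehydrogenase IDP2 had 1 and 9, and 29 and 89. The other members did not pass the test. PYC2, a pyruvate carboxylase, stood at −1.66, and CIT2, the peroxisomal citrate synthase, at 0.39. With any 1 of the 4 libraries left out, 6 or 7 members of the list were called higher.

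**Figure D1:**
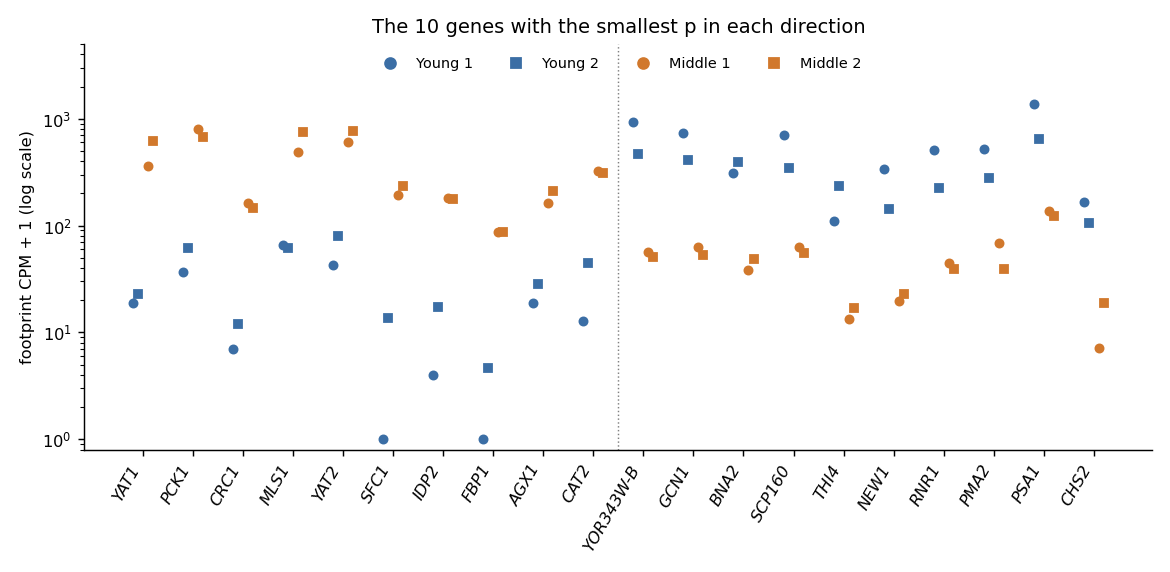
Footprint CPM plus 1, on a log axis, for the 10 lowest p-values on the higher side (left) and the lower side (right), a Ty family counted once, with circles for replicate 1 and squares for replicate 2, Young in blue and Middle in orange. The Middle values of PCK1 are 798 and 672 CPM against 35.6 and 60.1 in Young cells, and for none of the 20 genes do the groups overlap.

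Upstream of these genes the genome holds matches to the core of the carbon source response element (the letters CC, 6 bases of any kind, then CCG), which the activators Cat8 and Sip4 bind in the absence of glucose. In a window chosen after seeing the data, between 600 and 100 bases before the start codon, all 5 carnitine shuttle genes and 10 of 14 genes of gluconeogenesis and the glyoxylate cycle had a match on either strand, against 23.4% of 5901 genes. In the window from 250 bases before to 50 after the start codon, 2 of 5 and 1 of 14 had one, against 10.3%. Stretches of the R64 reference genome (RefSeq) around a match are shown for 6 of the genes that rose, 5′ to 3′ on the strand of the match, with the matching bases in capitals.
YAT1 (chrI:190045-190079, plus strand, 136 bases before the start codon): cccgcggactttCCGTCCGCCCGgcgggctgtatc
YAT2 (chrV:202011-202045, plus strand, 169 bases before): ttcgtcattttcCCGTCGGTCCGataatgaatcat
CRC1 (chrXV:514514-514548, minus strand, 258 bases before): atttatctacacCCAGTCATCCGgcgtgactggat
PCK1 (chrXI:630659-630693, plus strand, 481 bases before): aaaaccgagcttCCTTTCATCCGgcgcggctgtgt
ICL1 (chrV:287290-287324, minus strand, 398 bases before): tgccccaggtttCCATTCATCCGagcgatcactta
FBP1 (chrXII:875274-875308, plus strand, 504 bases before): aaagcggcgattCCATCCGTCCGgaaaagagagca
A match of this kind is a description of the letters and not of a bound site. CAT8, the gene of 1 of these activators, was among the genes called higher, at 2.42 on the log2 scale (SE 0.47). It was named after its value was seen, and a link between its change and the matches was not tested.

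Respiratory chain genes encoded in the nucleus formed the broadest higher group. For complexes II and III, cytochrome c and the NADH dehydrogenases, which feed electrons toward oxygen, the groups did not overlap for all 18 genes, and 10 of 18 passed the test (median 1.71). CYC1, the main cytochrome c of aerobic cells, had 77.2 and 184 CPM in the Young libraries, against 1132 and 898 CPM in the Middle libraries (2.93, SE 0.52, adjusted p = 0.015). CYC7, the cytochrome c isoform that oxygen-poor cells favor, rose with it (2.71, SE 0.52). NDE2, a NADH dehydrogenase facing the cytosol, had 5 and 40 footprints in Young cells, against 62 and 274 in Middle cells (3.33, SE 0.60). In each of these genes Young 2 had the higher Young value and remained well under both Middle libraries. The group took 0.226% and 0.501% of the pool in Young cells, against 1.39% and 1.41% in Middle cells. Its count of called genes was 7 without Young 1, 6 without Middle 1 and 3 without Middle 2.

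Among the 10 nuclear subunits of cytochrome c oxidase, the enzyme that passes electrons to oxygen, COX5A (1.96), COX4 (1.74) and COX7 (1.62) rose, and the list's median was 1.61. Without Young 1, 1 subunit was called, and without Middle 2, 0. The 17 nuclear subunits of ATP synthase had a median of 0.70 and none passed the test, although the groups did not overlap for 14 of them. ATP2, its catalytic subunit, had 1021 and 814 CPM in Young cells, against 1051 and 1201 CPM in Middle cells. Of 21 enzymes of the mitochondrial TCA cycle only SDH1 and SDH2, which also belong to complex II, passed. Mitochondrial ribosomal proteins, which make the subunits encoded in mitochondria, had no call (0 of 68 in either direction, median −0.16, or 0.016 with libraries scaled by their totals).

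Transporters and enzymes for other carbon sources rose beside them. JEN1, the lactate and pyruvate permease, had 321 and 1002 CPM in the Young libraries, against 4323 and 3488 CPM in the Middle libraries (2.56, SE 0.65, adjusted p = 0.041). ADY2, an acetate permease (2.03), and GUT2, the mitochondrial glycerol-3-phosphate dehydrogenase (2.98), rose as well. HXT5, a hexose transporter of slowly growing and starved cells, rose from 65.3 and 199 CPM to 1379 and 1171 CPM (3.24, SE 0.57, adjusted p = 0.015) and was the only one of 10 tested transporters and sensors past the threshold. On the same list of side branches of fermentation, ADH4 (−2.37) and GPP1, a glycerol-3-phosphatase (−1.97), fell. Without Middle 2, 1 gene of that list was called higher and 0 lower.

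In peroxisomes, where yeast oxidizes fatty acids, 3 of 20 genes passed, all higher. POT1, the thiolase, had 2 and 22 footprints in Young cells, against 61 and 124 in Middle cells (adjusted p = 0.015). CTA1, the peroxisomal catalase, had 1 and 6, and 25 and 40, and ECI1, an isomerase for unsaturated fatty acids, rose by 2.32. CTA1 was also the only one of 26 redox defence genes past the threshold, in a list with a median of 0.93 and 19 genes without overlap. SOD1, the copper and zinc superoxide dismutase, for example, had a log2 fold change of 1.78 that did not pass. ATG2, which supplies lipid to growing autophagosomes (2.07), was the only called gene of 19 in autophagy, and GLG2, a primer of glycogen synthesis, had 3 and 1 footprints in Young cells, against 4 and 25 in Middle cells. IME1, the inducer of meiosis in diploids, had 17.8 and 25.5 CPM in the Young libraries, against 92.8 and 95.8 CPM in the Middle libraries (2.07, SE 0.47, adjusted p = 0.027). It was the only 1 of 15 meiosis and sporulation genes with enough footprints to test. Its RNA did not pass the same test on RNA-Seq counts (0.73, adjusted p = 0.64).

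The genes that gained most of the pool were not those with the smallest p. ALD6, the cytosolic aldehyde dehydrogenase that makes acetate, held 0.383% and 1.10% of all footprints in Young cells, against 1.97% and 1.37% in Middle cells. ALD4, its mitochondrial counterpart, held 0.146% and 0.392%, and 0.800% and 0.849%. AIM17 held 0.153% and 0.247%, and 0.839% and 0.699%, and the membrane stress protein HSP12 held 0.144% and 0.301%, and 0.756% and 0.576%. The groups did not overlap for any of these 4, and none passed the test (adjusted p = 0.42, 0.17, 0.096 and 0.17). Of the 10 largest gains, which also include HSP104, AHP1, PRB1, PUN1 and MSC1, only that of JEN1 did.

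**Figure D2:**
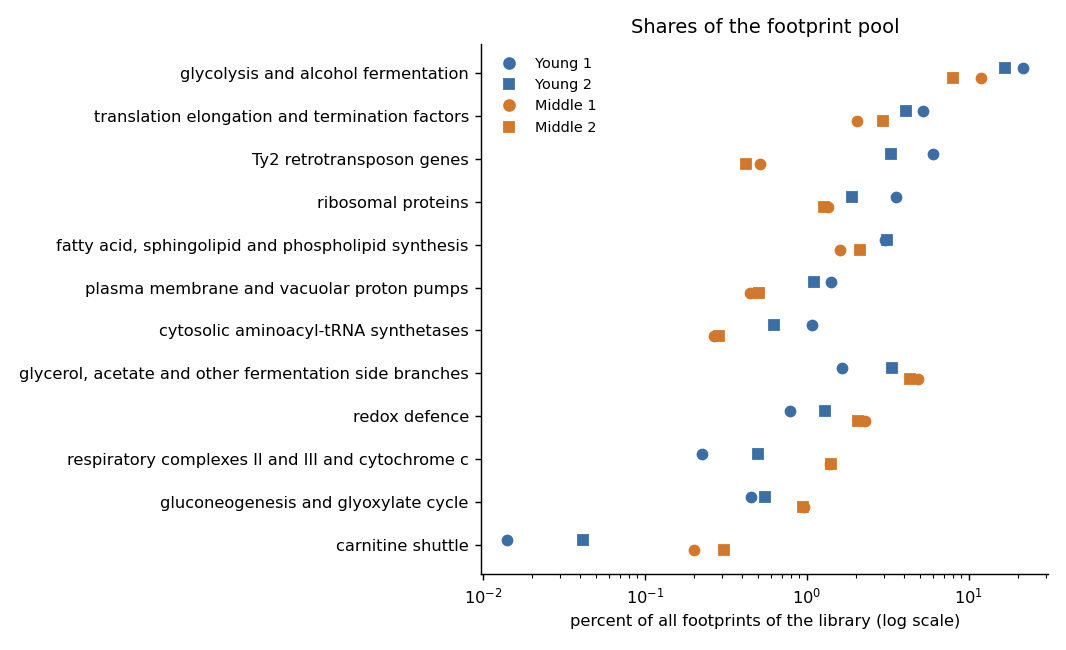
Percent of all footprints of a library, on a log axis, that lay on the genes of each list, with circles for replicate 1 and squares for replicate 2, Young in blue and Middle in orange. Glycolysis held 21.5% and 16.7% in Young cells, against 12% and 8.01% in Middle cells, while the carnitine shuttle held 0.0141% and 0.0416%, and 0.201% and 0.306%.

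Glycolysis and alcohol fermentation lost the largest share. These 21 genes held 21.5% and 16.7% of the pool in Young cells, against 12% and 8.01% in Middle cells. They include TDH2 and TDH3, alike copies whose reads may be shared (TDH3 at 106% to 111% of TDH2). These shares may therefore hold such reads more than once. Of the early steps, the phosphofructokinase subunits PFK1 (−2.73, SE 0.57, adjusted p = 0.022) and PFK2 (−2.36, SE 0.55) fell, as did PGI1, phosphoglucose isomerase (−2.58, SE 0.59). PFK1 had 2705 and 1028 CPM in the Young libraries, against 284 and 277 CPM in the Middle libraries, so the Young libraries differed from each other far more than the Middle ones. The abundant late enzymes had smaller or more scattered changes that did not pass, such as ENO2, enolase (−1.47, SE 0.81, adjusted p = 0.29), and TDH3, glyceraldehyde-3-phosphate dehydrogenase (−1.04). CDC19, pyruvate kinase, had 19363 and 11392 CPM in Young cells, against 2876 and 3181 CPM in Middle cells (−2.34, SE 0.72, adjusted p = 0.071). Of the sugar kinases, HXK2 stood at −1.23, and HXK1 and GLK1 at 1.21 and 0.30, all short of the threshold. Without either Middle library, 0 glycolytic genes were called.

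Cytosolic aminoacyl-tRNA synthetases, which load tRNAs with amino acids, were the most uniform lower group of the translation machinery. All 21 had lower values in each Middle than in each Young library, 10 of 21 passed the test, and the median was −2.06. CDC60, the leucine enzyme, had 873 and 348 CPM in the Young libraries, against 61.8 and 75.8 CPM in the Middle libraries (−3.11, SE 0.54, adjusted p = 0.015). CRS1, for cysteine (−3.35, SE 0.60), THS1, for threonine (−2.58), and GRS1, for glycine (−2.41), fell as well. The Middle libraries were close to each other for these enzymes, and Young 1 was above Young 2 for CDC60, CRS1, THS1 and GRS1. Together the synthetases held 1.08% and 0.628% of footprints in Young cells, against 0.266% and 0.287% in Middle cells. Without Young 1 the list's median was −1.12 with 8 called, and without Middle 2, 0 were called.

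Initiation and elongation factors followed. Of 29 initiation factors 5 fell and none rose, among them PRT1, NIP1 and RPG1, subunits of eIF3, and TIF4631, the scaffold eIF4G. PRT1 had 894 and 414 CPM in Young cells, against 55.7 and 112 CPM in Middle cells (−2.88, SE 0.53, adjusted p = 0.015). YEF3, the fungal elongation factor 3, fell (−2.56, adjusted p = 0.040), as did NEW1, a related ATPase that acts at termination (−3.48, adjusted p = 0.015). HEF3, the rarely used copy of YEF3, went the other way, from 65.3 and 51.0 CPM to 155 and 311 CPM (2.05, SE 0.45, adjusted p = 0.026). TEF1 and TEF2, which encode the same eEF1A, had nearly equal counts in every library (TEF2 at 98.4% to 99.4% of TEF1), so reads of identical copies appear to be counted for both, and neither passed. SSB1 (−2.17) and SSB2 (−1.92), chaperones that bind nascent chains on the ribosome, fell. They are alike copies whose reads may be shared (SSB2 at 95.8% to 129% of SSB1), so they may not be separate observations. GCN1, the ribosome-bound partner of the starvation kinase Gcn2, had 739 and 412 CPM in Young cells, against 61.8 and 51.9 CPM in Middle cells (−3.36, SE 0.49, adjusted p = 0.010). GCN4, the transcription factor whose translation that pathway controls, had 15 and 15, and 5 and 3 footprints and did not pass (adjusted p = 0.29). Without Middle 2, 0 initiation, elongation and termination factors were called.

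Ribosomal protein genes held 3.58% and 1.91% of the pool in Young cells, and 1.35% and 1.28% in Middle cells. The groups did not overlap for 102 of 132 genes, all lower, while 28.6% of all genes tested lay on that side without overlap. Only 6 passed the test (4.55%, near the 4.15% called lower over all genes tested). RPL37A (−3.09, SE 0.64) and RPL12A (−2.92, SE 0.64) had the smallest p among them. RPL2A and RPL2B, a pair of near-identical copies whose reads may be shared, fell (adjusted p = 0.032 and 0.038). The list's median was −1.34 with all libraries and −0.67 without Young 1, where 1 gene was called. Without Young 2, 113 were called, and without Middle 2, 0. In RNA the list's median was −0.62 and 0 of 129 genes passed.

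Ribosome biogenesis factors, which process rRNA and build subunits in the nucleolus, had 9 of 48 tested genes lower and none higher (median −1.10). They included KRE33, the rRNA acetyltransferase (255 and 118 CPM, and 24.7 and 16.0 CPM, −3.28, SE 0.57, adjusted p = 0.015), UTP10, UTP22 and POL5. These are abundant enough to count in Young cells and fell to 15 or fewer footprints in each Middle library. Other members did not pass, among them TIF6 with 140 and 206 CPM against 136 and 204 CPM. With at least 10 footprints required in every library, only 1 of these genes could be tested. RPA190 and RPA135, the large subunits of RNA polymerase I, which transcribes rRNA, fell (−3.18 and −2.59). Without Middle 2, 4 of the biogenesis factors were called.

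**Figure D3:**
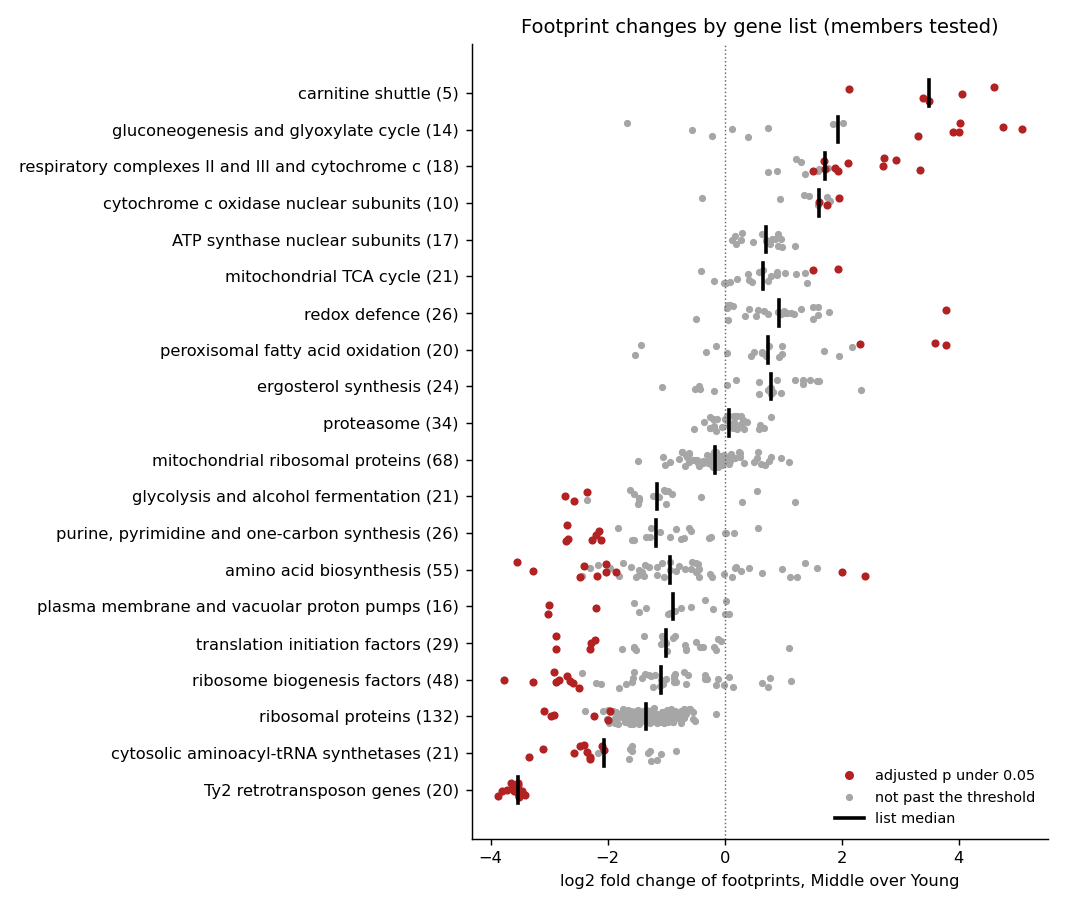
The log2 fold change of footprints, Middle over Young, for each tested gene (point) of 20 lists, with red points for an adjusted p under 0.05, grey points for the others and a black bar for the list's median. The carnitine shuttle lies highest at a median of 3.48, and the tRNA synthetases (−2.06) and Ty2 genes (−3.53) lie lowest.

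Biosynthetic enzymes fell in part. In purine, pyrimidine and one-carbon synthesis 7 of 26 genes fell and none rose (median −1.18). URA2, the entry enzyme of pyrimidine synthesis, had 805 and 414 CPM in Young cells, against 98.9 and 91.8 CPM in Middle cells (−2.68, SE 0.48, adjusted p = 0.015). ADE17 (−2.69) and ADE57 (−2.19) of the purine pathway fell too. Of 55 genes of amino acid synthesis 8 fell and 2 rose. BAT1, the mitochondrial branched-chain aminotransferase, fell (−3.55, SE 0.68), while LYS9 and LYS1, the last enzymes of lysine synthesis, rose from 119 and 164 to 779 and 720 CPM (2.40, SE 0.42) and from 223 and 173 to 952 and 640 CPM (2.00, SE 0.44). LYS2 (1.33, adjusted p = 0.092) missed the threshold. RNR1, the large subunit of ribonucleotide reductase, fell by 3.19 (SE 0.53, adjusted p = 0.015). FAS1, a fatty acid synthase subunit, fell (−2.36), and 0 of 24 ergosterol genes passed (median 0.79; without Young 2, 14 were called higher at a median of 1.53, and without Young 1, 0 at 0.28), ERG13 among them with 315 and 1146 CPM in Young cells, against 1336 and 2678 CPM in Middle cells. Without Middle 2, 1 gene of the purine and pyrimidine list and 1 of amino acid synthesis were called, both lower.

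At the plasma membrane and cell wall, PMA1, the proton pump that sets the membrane potential, had 7165 and 3451 CPM in the Young libraries, against 798 and 517 CPM in the Middle libraries (−3.02, SE 0.64, adjusted p = 0.023). PMA2, a rarely used copy, fell with it (adjusted p = 0.015), while its RNA stood at 0.16. Its count was 7.29% to 8.53% of that of PMA1 in each library, the copies are alike in sequence, and whether reads of PMA1 entered its count was not tested. VMA1, the catalytic subunit of the vacuolar pump, fell by 2.20. FKS1, the main glucan synthase, had 1018 and 383 CPM in Young cells, against 92.8 and 93.8 CPM in Middle cells (−2.90, SE 0.54, adjusted p = 0.016). Of 26 genes for glucan and chitin 6 fell and 1 rose, with GAS1, which elongates glucan (−2.82), CHS2, the chitin synthase of the septum (−3.19), and SCW4 (−1.98) among the lower and SKN1 (2.33) the higher one. Of 18 mannoproteins 4 fell, CWP2 (−2.55), TIP1 (−2.01), TIR1 (−1.85) and DAN4 (−1.84). The mannoprotein list as a whole held 1.74% and 1.66% of the pool in Young cells, against 1.97% and 1.53% in Middle cells, groups that overlap. CCW12, another wall mannoprotein, had a value of −1.82 (adjusted p = 0.073). Ammonium permeases MEP2 (−2.98) and MEP3 (−3.21) fell and MEP1 (−0.98, adjusted p = 0.15) did not pass. LYP1, the lysine permease, rose by 1.54. The iron siderophore transporters ARN1 and ARN2 and the metal transporter FET4 fell (−3.24, −3.27 and −1.88). Without Middle 2, 0 of the proton pump, mannoprotein, permease and metal uptake genes were called.

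Of 15 tested genes of septins and cytokinesis 5 fell and none rose, with a median of −0.30 (DESeq2 called 2). BUD4, an anchor of the septin ring, had 35 and 33 footprints in Young cells, against 0 and 3 in Middle cells (−4.09, SE 0.75, adjusted p = 0.015). MYO1, the myosin of the contractile ring (−2.50), and the kinases HSL1 (−3.77) and GIN4 (−2.62) of the bud neck also fell. Without Middle 2, 1 was called. Their RNA values were negative as well, with MYO1 at −2.84 and HSL1 at −2.54. The 9 tested genes that daughter cells switch on for cell separation had no call and a median of 0.14 (0.79 without Young 1 and −0.37 without Young 2). Whether the share of dividing cells differed between the groups was not tested, and in bulk samples fewer cells of a kind and less RNA per cell cannot be told apart.

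Ty2, a retrotransposon present in several near-identical genomic copies, had the lowest list of all. Its 20 genes held 5.99% and 3.31% of the pool in Young cells, against 0.518% and 0.424% in Middle cells, all 20 fell, and the median was −3.53. They are not separate observations. Copies YFL002W-A and YGR161W-B had equal counts in 3 of 4 libraries (2144, 1531 and 71), so the same reads appear to be counted at several copies. The pool shares of Ty2 may therefore hold such reads more than once. Without Middle 2 the median was −3.24 and 0 of the 20 genes were called. With Ty copies and paralogs summed, 132 genes were higher and 176 lower. The other family tested, Ty1, had 6 of 60 genes with enough reads and a median of −0.04 (0.18 with libraries scaled by their totals). Its 60 genes held only 0.0697% and 0.0503% of the pool in Young cells, against 0.0695% and 0.0532% in Middle cells. The study remapped its reads to Ty consensus sequences and reports fewer Ty1 footprints in Middle cells. How many Ty1 reads the counts used here hold was not tested, so they do not show Ty1 as unchanged.

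Several groups did not pass the test. Proteasome genes (0 of 34 called, median 0.08), histones (0 of 11, 0.05), DNA repair and damage response genes (0 of 27, 0.39) and the HSP90, chaperonin and small heat-shock list (0 of 25, −0.17) had no call. The heat-shock list held 2.38% and 1.80% of the pool in Young cells, against 3.82% and 2.61% in Middle cells. Histones held 0.402% and 0.364%, and 0.588% and 0.499%, while the shares of DNA repair genes overlapped between the groups. For the proteasome, 24 of 34 values were above 0, and its pool share was 0.911% and 1.06% in Young cells and 1.12% and 1.22% in Middle cells. RPN1, its member with the lowest fold change, had 974 and 609 CPM in Young cells, against 526 and 577 CPM in Middle cells, groups that differ by less than the spread between the Young libraries. HAC1, the transcription factor of the unfolded protein response, had 704 and 414, and 377 and 459 CPM (−0.41, SE 0.43, adjusted p = 0.61). Of the ER folding list EUG1 and ERO1, which form disulfides, fell (−1.97 and −1.67).

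RNA-Seq of the same lysates moved in the same direction for most of these genes. In RNA, 123 of 5818 genes were higher (2.11%) and 50 lower (0.859%). Of the 114 genes with higher footprints, all had a positive RNA fold change and 68 passed the RNA test. Of the 173 with lower footprints, 170 were tested for RNA, 167 had a negative RNA fold change and 31 passed. Of all 4147 genes tested in both assays, 122 were higher and 42 lower in RNA, and how often the signs agreed among them was not counted. At the median, the higher genes had a log2 fold change of 2.12 in footprints and 1.83 in RNA, and the lower genes −2.56 and −1.27. These genes were selected by their footprints, so the footprint and RNA medians do not stand on equal terms. In a fit of footprints and RNA together, 0 of 5334 genes differed between the assays after adjustment, with 64 higher and 105 lower when the unadjusted p was held under 0.05, so no gene's footprint change was shown to differ from its RNA change. CWP2 had −2.55 in footprints and −0.43 in RNA, and SCW4 −1.98 and −0.27, without a difference past the threshold of that joint test.

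The share of genes called lower was highest among the longest coding sequences. Above 1500 counted codons, 25 of 119 genes were lower (21.0%) and 2 higher, with a median of −0.78, while over 150 and up to 300 codons 14 of 886 were lower (1.58%) and the median was 0.16. Without ribosomal protein and Ty genes, 15 of 106 were lower (14.2%) and the median was −0.70. Among them were REA1 (4901 codons), GCN1 (2663), UTP20 (2484), URA2 (2205) and FAS1 (2042), which belong to ribosome assembly, translation control and synthesis. A bin's median set against that of all genes stayed low for the longest genes without each library in turn, between −1.15 and −0.45. Sequences over 1500 codons, without ribosomal protein and Ty genes, held 3.48% and 2.58% of the pool in Young cells, against 1.35% and 1.91% in Middle cells, and those of up to 300 codons held 16.7% and 20.8%, and 27.3% and 24.2%. The RNA median differed with length too, from a log2 fold change of 0.39 at up to 150 codons to −0.50 above 1500. Across the 4167 genes Spearman's rho between length and footprint fold change was −0.149. The median gene had 27.25 footprints per library over 150 and up to 300 codons, and 39.75 above 1500. Between these lengths coverage did not rise steadily. It was 32.9 over 300 and up to 500 codons, where 3.41% were lower. Over 1000 and up to 1500 codons it was 29.25, and 8.77% were lower. Lower calls were more frequent among well-covered genes (27 of 188 genes above 300 footprints per library, 7 of 334 at up to 10). How far coverage enters the relation with length was not tested.

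**Figure D4:**
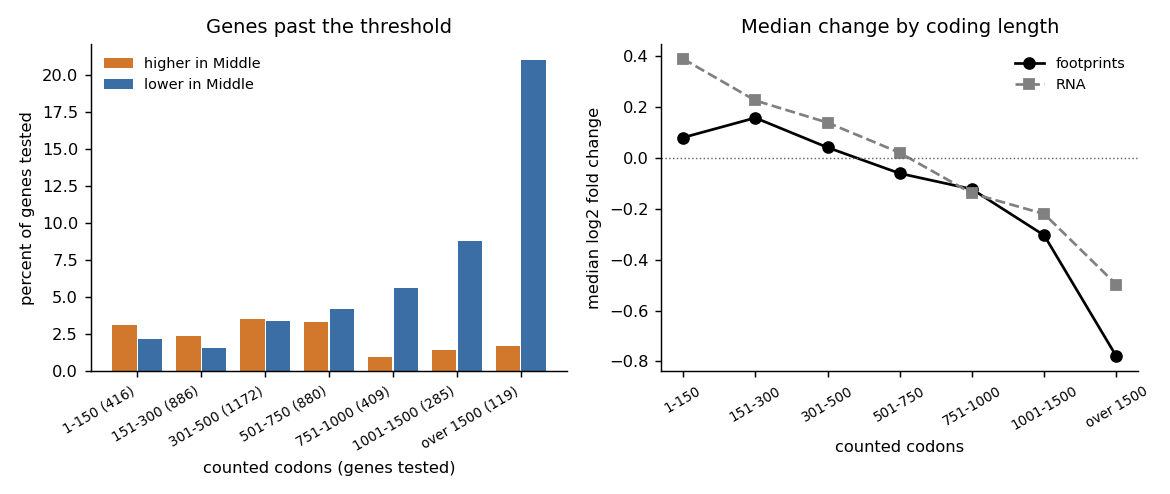
Left, the percent of tested genes with higher (orange) and lower (blue) footprints in Middle cells by counted codons. Right, the median log2 fold change by the same bins for footprints (black) and RNA (grey), with 21.0% lower and a footprint median of −0.78 above 1500 codons.

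Short elements in the start regions of the called genes were counted as a description, without a test. In the window from 250 bases before to 50 after the start codon, AGGGG, the stress response element bound by Msn2 and Msn4, was found on either strand before 54 of 114 higher genes (47.4%) and 20 of 153 lower genes outside Ty (13.1%), against 1296 of 5901 genes. For complexes II and III and cytochrome c it was 61.1%. CCAAT, which the Hap2/3/4/5 complex of respiratory genes binds, was common throughout (43.8% of all) and stood at 72.2% for that list and at 90% for the 10 oxidase subunits. GATGAG, the PAC element, was found before 59 of 64 ribosome biogenesis genes (92.2%) against 19.9% of all, and in 16.7% of the higher and 22.2% of the lower genes. TGACTC, the Gcn4 element, was found in 53.6% of amino acid synthesis genes, 8.12% of all, 10.5% of the higher and 14.4% of the lower genes. CACCCA, part of the Rap1 element, was found in 7.02% of the higher, 7.19% of the lower and 7.59% of all genes. In the window from 600 to 100 bases before the start codon, chosen after seeing the data, the carbon source element was found in 45.6% of the higher and 22.9% of the lower genes. AGGGG was found there in 57.9% and 30.7%. Its share over all genes in this window is not given here, so these values have no background beside them. AGGGG and the other elements were searched independently, and matches may overlap.

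**Figure D5:**
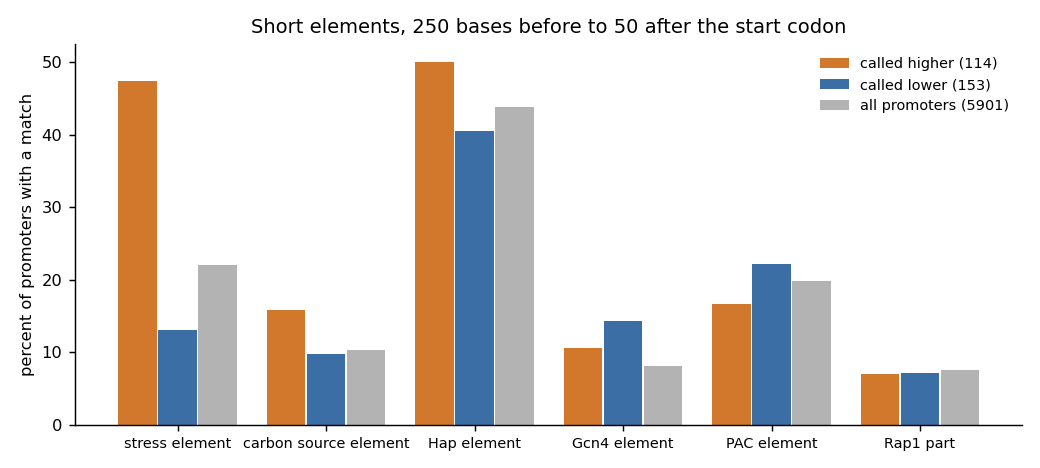
Percent of start regions, from 250 bases before to 50 after the start codon, with a match on either strand to each of 6 short elements, for genes with higher (orange) or lower (blue) footprints in Middle cells and for all genes (grey). The stress element stands at 47.4% of the higher and 13.1% of the lower genes.

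The codons under ribosomes were estimated from the pool, as a description without a test. Footprints of each gene were spread evenly over its counted codons, and the shares of the 61 sense codons were summed. The groups did not overlap for 56 codons, 36 higher and 20 lower in Middle cells. GCT, an alanine codon that abundant proteins favor, had 4.72% and 4.17% in the Young libraries and 3.78% and 3.41% in the Middle ones, and GGT (glycine) 5.20% and 4.71%, and 4.43% and 4.09%. CAG (glutamine) had 0.627% and 0.769%, and 0.898% and 0.977%, beside 1.28% of all codons of the coding sequences. Without the 20 genes with most footprints the differences were smaller (Middle to Young ratios of 0.868 to 1.21, against 0.809 to 1.36), with 31 codons higher and 17 lower. The genes that together held 50% of footprints numbered 106 and 200 in the Young and 160 and 268 in the Middle libraries, ranges that overlap.

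The single Aged footprint library, from mothers kept a further 24 h in the magnetic vessel, gives levels only. YAT1 had 1757 and PCK1 had 1369 footprints there. The carnitine shuttle held 0.532% of its pool, complexes II and III and cytochrome c 2.08%, glycolysis 9.24%, tRNA synthetases 0.487% and Ty2 0.108%. Ribosomal proteins held 6.73%, above all 4 Young and Middle libraries, and this difference was not tested.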

How the data were processed

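Footprint counts of 2 Young and 2 Middle libraries, with RNA-Seq counts of the same ages, were analyzed. The authors trimmed reads with Fastp, removed those on non-coding RNA, aligned the rest with STAR 2.7.0a to the S288C genome (sacCer3), placed footprints by an A-site offset and deposited counts per coding sequence, without the first and last 5 codons and without normalization. A second column deposited by the authors, which is of another kind (other), is the length of that stretch in codons. Treatment of reads with several matches, use of strand and annotation version are not given in the sources used here. Coding sequence lengths matched the R64 reference for 99.4% of 5901 genes compared.

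Tests ran on the counts in edgeR 4.0.16 under R 4.3.3 (filterByExpr, TMM, quasi-likelihood test, threshold 0.05) and, as an alternative, DESeq2 1.42.0. The script was tested on simulated data. Depth was 168247 to 518833 footprints per library, so 3 counts were 5.782 to 17.83 CPM. Exact permutation of 2 against 2 libraries cannot reach the threshold, so pool shares are descriptions.

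Genes and lists were chosen with earlier results of these data known. Named genes are the 10 with the smallest p in each direction, up to 4 called genes of each list in each direction (otherwise the member with most footprints), the 10 largest gains and losses of pool share, strain markers, some genes the study discusses, and genes whose sequence is shown. CAT8, AGP2, REA1, UTP20, PYC2, CIT2, SOD1, TIF6, HXK1, HXK2 and GLK1 were named after their values were seen. Alternatives were other scalings and filters, DESeq2, a fit of all 3 ages, a replicate block, summed copies, other pool denominators and leaving out each library.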

Additional observations from a re-analysis of the deposited data

How the results depend on the processing

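None of the 104 named genes past the threshold changed sign where tested (59 with at least 10 counts, 103 without Middle 2). Their signs with summed copies were not compared. RLE size factors, TMM without ribosomal protein and Ty genes, a filter of at least 10 counts, DESeq2, the fit of 3 ages and summed copies kept both counts of called genes within 1.5 times of 114 and 173. Scaling by library totals gave 205 higher genes, and no filter on low counts gave 268 higher and 382 lower. Leaving out 1 library gave 35 to 381 higher and 11 to 555 lower genes, the fewest without Middle 2 and the most without Young 2, and 79 of 103 named genes lost their call without Middle 2. With a replicate block, 281 genes were higher and 400 lower. The labels do not say that a number marks a shared culture or bead reaction, and libraries of the 2 ages with the same number deviated from their group means with r = 0.146 in the only correlation that can be formed.

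Requiring 10 counts in every library left 1 gene of ribosome biogenesis (−0.12), 8 of gluconeogenesis and the glyoxylate cycle (median 0.44) and 2 of the carnitine shuttle (median 2.67). The cause of the others was not tested. Leaving out 1 library gave ranges of −1.92 to −0.67 for ribosomal proteins, −2.25 to −0.72 for ribosome biogenesis factors, −2.47 to −1.12 for cytosolic aminoacyl-tRNA synthetases, −1.73 to −0.72 for glycolysis and alcohol fermentation, −1.53 to −0.87 for purine, pyrimidine and one-carbon synthesis, 3.13 to 4.59 for the carnitine shuttle, 1.18 to 2.22 for cytochrome c oxidase nuclear subunits and −4.04 to −2.77 for Ty2 retrotransposon genes. In the pool without the 20 genes with most footprints, the log2 ratio of the share of gluconeogenesis and the glyoxylate cycle was 0.78. Of 334 genes at up to 10 footprints per library, 4 were called higher and 7 lower.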
